A study of Drosophila melanogaster with 6 samples.

Results

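UDP-glycosyltransferase mRNAs were examined in Drosophila S2 cells, where 6 of 35 Ugt genes were measured above background, against 54.5% of all genes. Of the 35, 2 were called lower in NELF-depleted than in mock cells, where 1.09% of all genes were. These were Ugt317A1 and Ugt35A1, both above background, and both calls depended on how the test was set up. The members were all genes whose current symbol begins with Ugt followed by a digit, the rule using names and no measured value. All 35 such genes in the RefSeq gene table had 1 probe set annotated to them alone, out of 11981 genes measured in all, so no choice between probe sets was needed for any member.

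RNA came from S2 cells of the Drosophila Genomics Resource Center (DGRC), a culture line first grown from late embryos that resembles phagocytic blood cells, and was hybridised to Affymetrix Drosophila Genome 2.0 arrays, which read mRNA with sets of short probes. Untreated cells received no dsRNA, mock-treated cells received dsRNA against bacterial β-galactosidase, and NELF-depleted cells received dsRNA directed at NELF-B and at NELF-E, both subunits of the negative elongation factor (NELF). Both dsRNA treatments lasted 96 hours before harvest. Each of the 3 groups had 2 arrays, and the labels leave unsaid whether a pair stems from independent cultures. The p-values therefore reflect only how far these arrays differ, which may be technical.

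UDP-glycosyltransferases are membrane enzymes of the endoplasmic reticulum that transfer the sugar of a UDP-sugar, in insects mainly glucose, to small lipophilic molecules. The conjugates are more soluble and are more readily excreted, which makes the family part of detoxification alongside cytochromes P450 and glutathione transferases. In flies many members are known from fat body, gut, Malpighian tubules or antennae, where they act on plant toxins, insecticides, pigments and odorants. NELF is a complex that keeps RNA polymerase II waiting just downstream of promoters.

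Levels are given as normalized log2 intensity after quantile normalization of all arrays, and a difference of 1 on this scale is a doubling. Since probe sets differ in how brightly they report an mRNA, each level was set against background and against the same probe set in other groups, never against another gene. Background was the 95th percentile of the array's tag control probe sets, a log2 level of 3.88. Median deposited intensities ran from 11.7 to 14.2 over the arrays, and after normalization each array placed between 6948 and 7012 genes over background. With so few arrays, the precision of each value is limited by their number. The targets of the dsRNA were lowered, with 26.1% of NELF-B and 19.0% of Nelf-E mRNA left in NELF-depleted cells relative to mock. Of 12 blood cell markers 10 lay above background, against 2 of 10 measured markers of fat body, gut, Malpighian tubule and antenna (Irk2 and lush). The blood cell markers below it by their means were NimC1 (2.63) and Sr-CI (3.58). The blood cell marker He lay close above it (4.23), as did Irk2 (4.22) and lush (4.19).

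Most of the family lay below background in these cells. Members below it in each group are called silent here. With 1 probe set per gene, a weak probe set and an absent mRNA cannot be told apart. By the mean over 6 arrays, Ugt35A1, Ugt36A1, Ugt302C1, Ugt305A1, Ugt316A1 and Ugt317A1 lay above background, 17.1% of the family, while 54.5% of all genes did. Ugt36A1 is the gene also known as Dorothy (Dot), used in the fly as a marker of pericardial cells and of the lymph gland. Ugt36D1 was above background only in untreated cells, and 28 members were below it in each group. The 6 members belonged to 6 of the 13 families numbered in the symbols. None of the 8 Ugt37 genes, the 4 Ugt303 genes or the 3 Ugt49 genes was among them, and the Ugt35 family had 1 of 6 above background. For comparison, 64.7% of 34 glutathione transferase genes and 37.3% of 83 cytochrome P450 genes lay above background, a difference between families that was not tested.

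**Figure D1:**
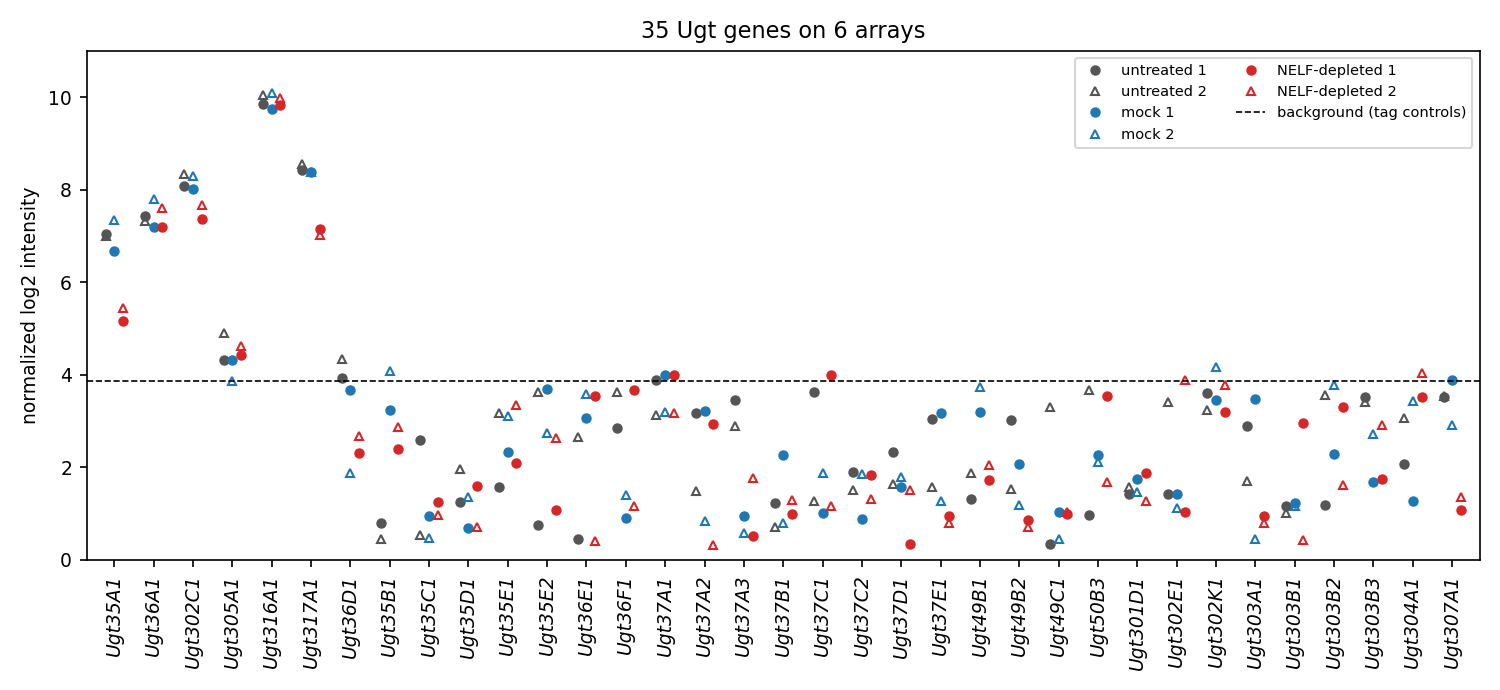
Normalized log2 intensity (y axis) of each of the 35 Ugt genes (x axis) on the 6 arrays, with colour for the group, filled circles for replicate 1 and open triangles for replicate 2. The first 6 genes lie above the dashed background line of 3.88 by their mean, Ugt36D1 stands next to them, and the remaining 28 scatter below the line apart from 9 of their 168 values.

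The silent members were Ugt301D1, Ugt302E1, Ugt302K1, Ugt303A1, Ugt303B1, Ugt303B2, Ugt303B3, Ugt304A1, Ugt307A1, Ugt35B1, Ugt35C1, Ugt35D1, Ugt35E1, Ugt35E2, Ugt36E1, Ugt36F1, Ugt37A1, Ugt37A2, Ugt37A3, Ugt37B1, Ugt37C1, Ugt37C2, Ugt37D1, Ugt37E1, Ugt49B1, Ugt49B2, Ugt49C1 and Ugt50B3. Their means ran from 1.13 to 3.57, and 9 of their 168 single values exceeded background. These 9 values came from 7 genes, of which Ugt37A1 exceeded it on 3 arrays and the other six on 1 array each. The remaining 21 silent members exceeded it on no array. Replicate arrays disagreed far more at these levels: for silent members the replicates of untreated, mock and NELF-depleted cells stood 0.896, 0.799 and 0.858 apart in the median. For the 6 members above background it was 0.162, 0.403 and 0.233.

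Ugt317A1, the single gene of family 317 (gene identifier 37590, chromosome arm 2R), gave the most precise fall. Its levels were 8.43 and 8.56 in untreated, 8.38 and 8.39 in mock and 7.14 and 7.01 in NELF-depleted cells. The 4 control arrays lay close together, and the lowest of them was 1.24 above the higher NELF-depleted array. Before normalization the deposited intensities showed the same order, with 417 and 451 in untreated, 371 and 261 in mock and 133 and 105 in NELF-depleted cells. Against mock, Ugt317A1 fell by 1.31 (SE 0.124, 95% confidence interval -1.58 to -1.03), leaving 40.4% of the mRNA, and limma with an intensity-dependent prior gave an adjusted p of 0.000434 over all genes. Against untreated cells it fell by 1.42 (SE 0.124), leaving 37.5% (limma adjusted p = 0.000266).

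The other fall was that of Ugt35A1 (gene identifier 41334, chromosome arm 3R), a member of the UGT35 family whose close relative Ugt35B1 is known in the fly for antennal expression. Ugt35A1 had levels of 7.05 and 7.0 in untreated, 6.67 and 7.35 in mock and 5.17 and 5.44 in NELF-depleted cells. Both NELF-depleted arrays were again below all 4 control arrays, by at least 1.23, and still above background. The mock arrays stood 0.68 apart, more than those of untreated or NELF-depleted cells, with group levels of 7.01 ± 0.480 (SD, n = 2) in mock, 7.02 ± 0.0360 in untreated and 5.30 ± 0.189 in NELF-depleted cells. Ugt35A1 fell by 1.70 against mock (SE 0.261, 95% confidence interval -2.28 to -1.12, limma adjusted p = 0.00883), leaving 30.7% of the mRNA. Against untreated cells it fell by 1.72 (SE 0.261), leaving 30.3% (limma adjusted p = 0.00841).

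In NELF-depleted against mock cells these 2 of 35 members were called lower, where 1.09% of all genes were, and 0 members were called higher, where 0.267% were. Against untreated cells the same 2 members were lower, with 1.18% of all genes, and 0 were higher, with 0.234% of all genes. The comparisons share the NELF-depleted arrays. Both calls depend on the prior variance: limma with a single prior for all genes called 0 members and 0 genes in all against mock (adjusted p = 0.139 for Ugt317A1 and 0.211 for Ugt35A1), where 6 of 35 members and 1097 of 11981 genes had an unadjusted p under 0.05. Ugt317A1 stayed called in each of the other 18 alternatives, including without any single array. Ugt35A1 lost the call against mock when mock replicate 2 was left out (-1.38, adjusted p = 0.111), when NELF-depleted replicate 1 was (-1.56, adjusted p = 0.0727) and with an offset of 50 intensity units before the logarithm (-1.01, adjusted p = 0.0707). Against untreated cells it lost the call without untreated replicate 1 (adjusted p = 0.114), untreated replicate 2 (0.0965) or NELF-depleted replicate 1 (0.07), and with that offset (0.0652).

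**Figure D2:**
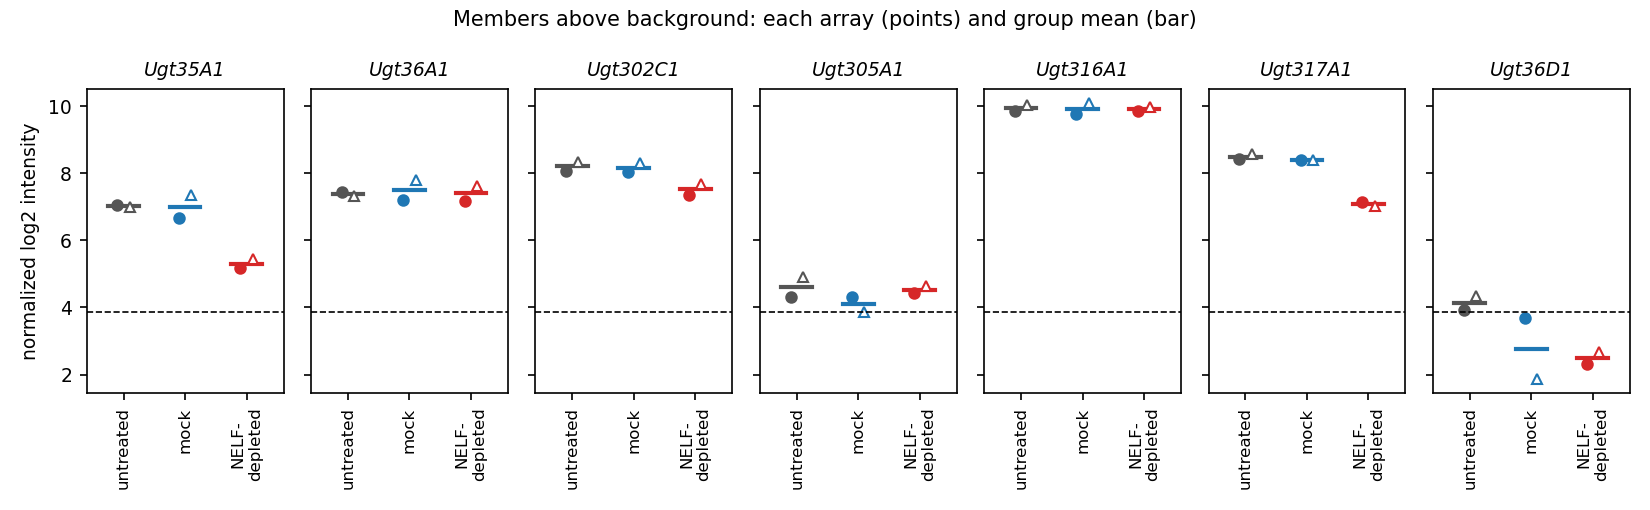
Normalized log2 intensity (y axis) on each array for the 7 members above background in at least 1 group, with bars for group means, filled circles for replicate 1 and open triangles for replicate 2. Ugt317A1 and Ugt35A1 sit lower on both NELF-depleted arrays than on all 4 control arrays, by 1.24 and 1.23, while Ugt316A1 stays between 9.75 and 10.1.

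Ugt302C1 (gene identifier 53510, chromosome arm 3R) had lower values of smaller size. Its levels were 8.07 and 8.34 in untreated, 8.02 and 8.29 in mock and 7.36 and 7.68 in NELF-depleted cells. The NELF-depleted arrays did not overlap the controls, but the gap between the lowest control array and the higher NELF-depleted array was 0.35, close to the spread between replicates. The log2 difference was -0.64 against mock (SE 0.161, 95% confidence interval -0.997 to -0.28) and -0.69 against untreated cells (SE 0.161), and neither passed over all genes (limma adjusted p = 0.112 and 0.0828). With the replicate number as a block both did (adjusted p = 0.0156 and 0.00977). They also did with arrays scaled on hybridization controls (-1.08 and -1.11), a scaling under which the median of all genes fell too in both comparisons. Among genes above the median level both passed as well (adjusted p = 0.0486 and 0.0344). Ugt302C1 was called in 3 of 19 alternatives against mock and in 7 of 19 against untreated cells.

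The other members above background had small or poorly measured differences. The probe set of Ugt316A1 (gene identifier 40079) read 9.84 and 10.04 in untreated, 9.75 and 10.1 in mock and 9.84 and 9.97 in NELF-depleted cells. The groups overlapped, and the difference between NELF-depleted and mock cells was -0.02 (SE 0.126), with a 95% confidence interval from -0.30 to 0.26. That interval does not reach the size of the fall of Ugt317A1 on the same arrays. With arrays scaled on hybridization controls the difference was -0.45 (adjusted p = 0.0303) where the median of all genes also moved to -0.44.

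Ugt36A1 (gene identifier 44058), the Dot gene, read 7.43 and 7.31 in untreated, 7.19 and 7.79 in mock and 7.18 and 7.61 in NELF-depleted cells. Its groups overlapped, with a difference of -0.09 against mock (SE 0.216, 95% confidence interval -0.57 to 0.38) and 0.03 against untreated cells. In the RefSeq table Ugt36A1 overlaps CG15418, which lay below background at a mean of 1.63.

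Ugt305A1 (gene identifier 59217) lay nearest to background among the 6. It read 4.32 and 4.91 in untreated, 4.32 and 3.86 in mock and 4.43 and 4.63 in NELF-depleted cells, with only mock replicate 2 below background. The difference of 0.44 against mock had an SE of 0.505 and a 95% confidence interval from -0.68 to 1.56, which holds changes in either direction. That interval does not reach the size of the fall of Ugt317A1, but a mock mean of 4.09 left little room above background for a fall. Ugt36D1, in the same gene run as the antennal gene Ugt36E1, read 3.94 and 4.35 in untreated, 3.68 and 1.87 in mock and 2.31 and 2.68 in NELF-depleted cells. It was at least 1.2-fold lower in mock and in NELF-depleted than in untreated cells by its group means, neither past the test (limma adjusted p = 0.9997 and 0.538).

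**Figure D3:**
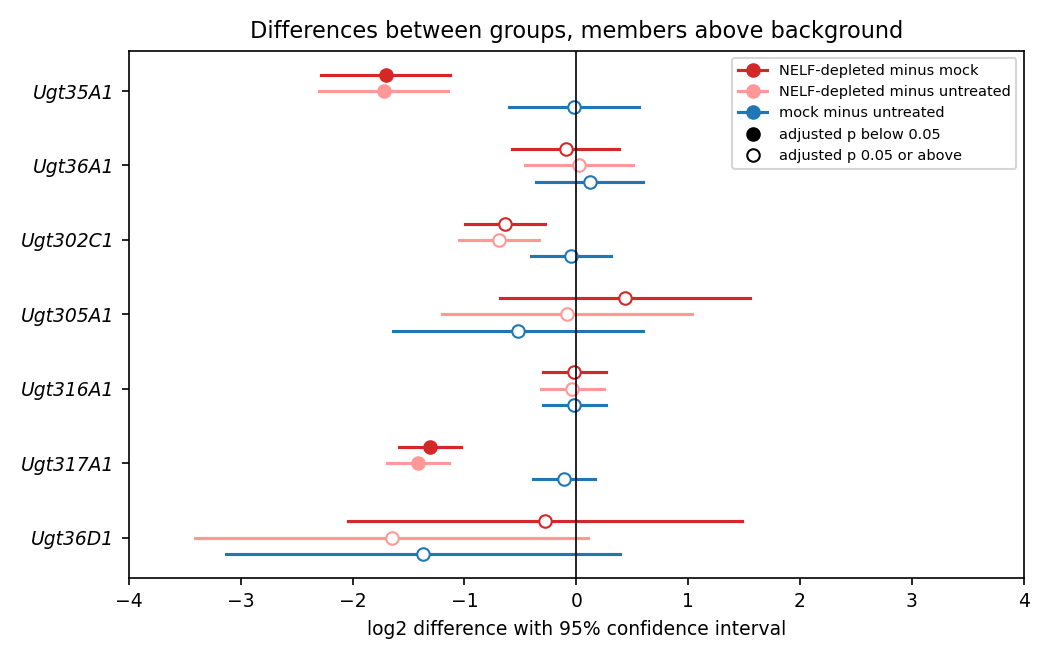
Log2 differences between groups (x axis) for the 7 members above background in at least 1 group (y axis), with horizontal lines for 95% confidence intervals. Filled points mark an adjusted p under 0.05, which Ugt317A1 and Ugt35A1 had against mock (-1.31 and -1.70) and against untreated cells (-1.42 and -1.72), while no member had it between mock and untreated cells.

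Between mock and untreated cells no member above background passed the test. For Ugt317A1, Ugt302C1, Ugt35A1 and Ugt316A1 the differences were -0.11, -0.05, -0.02 and -0.02 (SE 0.124, 0.161, 0.261 and 0.126). Ugt36A1 had a difference of 0.12 (SE 0.216) and Ugt305A1 one of -0.52 (SE 0.505). Limma called 0 members and 0% of all genes in this comparison. At an unadjusted p under 0.05 there were 4 members, and 3.41% of all genes passed that threshold. Those 4 members, Ugt35B1, Ugt36F1, Ugt37A3 and Ugt49B1, were all silent genes.

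These silent genes show how single probe sets behaved below background. Ugt35B1, the antennal gene, read 0.81 and 0.46 in untreated, 3.24 and 4.08 in mock and 2.40 and 2.87 in NELF-depleted cells. Only mock replicate 2 exceeded background, so no fold is given (limma unadjusted p = 0.0024, adjusted p = 0.9997 for mock against untreated). Ugt37A3 read 3.46 and 2.90 in untreated, 0.95 and 0.59 in mock and 0.51 and 1.77 in NELF-depleted cells, all below background. Ugt49B1 read 1.32 and 1.87, 3.19 and 3.73, and 1.74 and 2.06 in the same order.

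Ugt307A1 read 3.53 and 3.54 in untreated, 3.89 and 2.92 in mock and 1.08 and 1.37 in NELF-depleted cells. Its NELF-depleted arrays lay below all 4 controls, but only mock replicate 1 was above background, and the difference did not pass the test (limma adjusted p = 0.277 against mock and 0.263 against untreated). In the RefSeq table Ugt307A1 overlaps Pvf2, and whether this affects its probe set was not tested. Over the 28 silent members the smallest adjusted p was 0.277 against mock, with differences from -2.18 to 1.42 and SEs from 0.652 to 1.13. Each of their 95% confidence intervals against mock extended farther on either side of its own estimate than the size of the fall of Ugt317A1.

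Counting arrays alone, both NELF-depleted arrays lay below all 4 controls for 7 of 35 members, against 11% of all genes, and above all 4 for 1 member, against 11.1% of all genes. The 7 were Ugt317A1, Ugt35A1 and Ugt302C1 together with the silent genes Ugt307A1, Ugt37D1, Ugt37E1 and Ugt49B2. The 1 higher gene was the silent Ugt304A1, with 3.52 and 4.04 in NELF-depleted cells and from 1.28 to 3.43 in controls. The median log2 difference over the 35 members was -0.09 against mock and -0.13 against untreated cells, and 0.01 for all genes in both comparisons.

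In the gene order of the RefSeq table, 22 of the 35 Ugt genes stood directly next to another Ugt gene, in 7 runs of 2, 3 or 6 genes. Of the 6 members above background, Ugt302C1 and Ugt35A1 lay in such runs and Ugt36A1, Ugt305A1, Ugt316A1 and Ugt317A1 stood alone. The run Ugt302K1, Ugt302E1 and Ugt302C1 on chromosome arm 3R is followed by CG4757 and then by the 6-gene run Ugt35E1, Ugt35E2, Ugt35B1, Ugt35A1, Ugt304A1 and Ugt303A1. Within these 9 Ugt genes Ugt302C1 and Ugt35A1 were the only ones above background by their means. Both had lower values on both NELF-depleted arrays than on all controls, as did 11% of all genes, and only Ugt35A1 was called. The silent Ugt304A1 of the same run had higher values on both NELF-depleted arrays than on all controls. CG4757 itself was below background (mean 1.69, difference from mock -0.81, limma adjusted p = 0.823).

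Around Ugt317A1 on chromosome arm 2R, the directly adjacent gene RpS24 had no value here. Of the measured neighbours, CG3732 had a difference of 0.22 against mock (limma adjusted p = 0.580) and CG2852 one of 0.25 (adjusted p = 0.399), both above background and neither past the test. Around Ugt316A1, the sideroflexin gene Sfxn2 had a difference of 0.00 (adjusted p = 0.999) and the MAP kinase phosphatase gene Mkp3 one of -0.33 (adjusted p = 0.361). Next to Mkp3, MESR6 had one of 0.02 (limma adjusted p = 0.983). On the other side nkd had a difference of 0.64 (adjusted p = 0.423) and Acp76A one of 0.54 (adjusted p = 0.786). These neighbours of Ugt316A1 all lay above background and none passed the test.

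**Figure D4:**
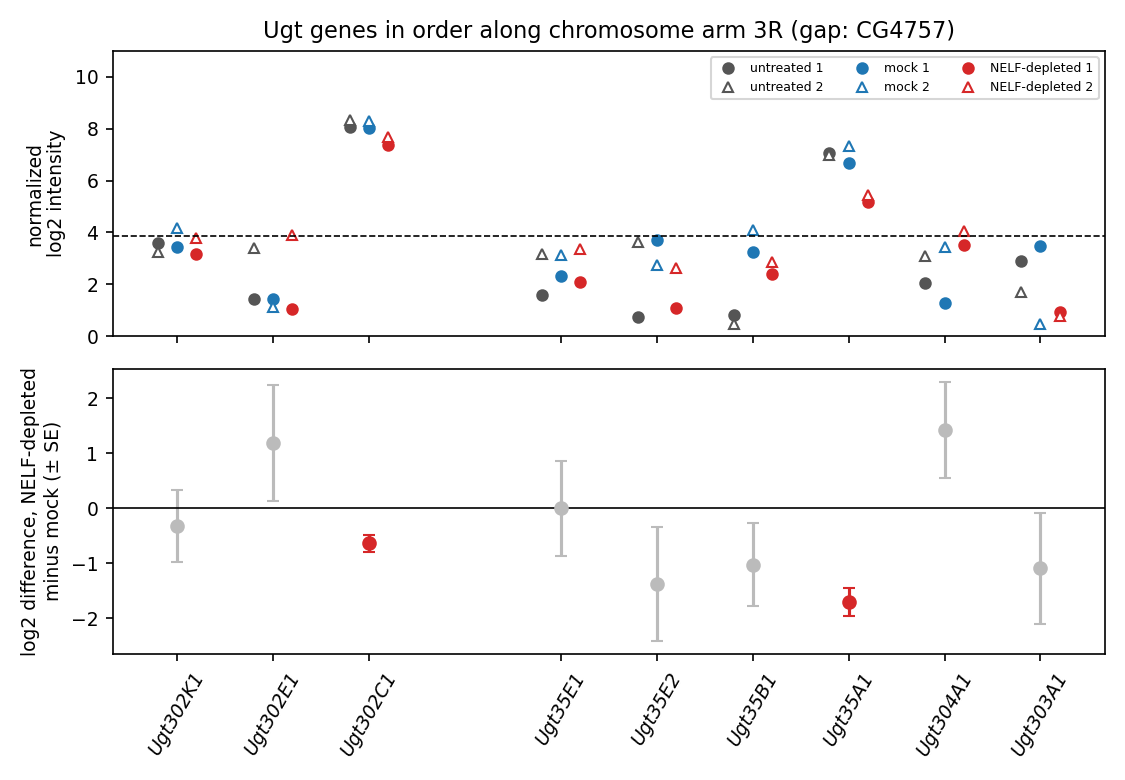
Upper panel, normalized log2 intensity (y axis) on the 6 arrays for the 9 Ugt genes of 2 neighbouring runs in their order along chromosome arm 3R, with colour for the group, circles for replicate 1, triangles for replicate 2 and a dashed background line at 3.88. Lower panel, log2 difference between NELF-depleted and mock cells (y axis) with its SE, in red for Ugt302C1 (-0.64) and Ugt35A1 (-1.70), which lie above background, and in grey for the silent genes, whose SEs are larger.

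The measured enzymes and carriers that supply UDP-sugars did not pass the test. Of 15 listed genes 12 had a probe set of their own, all 12 lay above background, and 0 were called against mock, with 4 at an unadjusted p under 0.05 by limma, as were 1320 of all 11981 genes. Their median difference was 0.02, beside 0.01 for all genes. UGP lay nearest to background, with a mean of 4.68, and was poorly measured. Its difference of 0.05 (SE 0.442) had a 95% confidence interval from -0.93 to 1.03, which holds changes in either direction. The UDP-glucose dehydrogenase gene sgl, which makes UDP-glucuronate, had a value of 0.42 (SE 0.113, adjusted p = 0.143). The UDP-N-acetylglucosamine pyrophosphorylase gene mmy had one of 0.39 (SE 0.107) and the phosphoglucomutase gene Pgm1 one of -0.38 (SE 0.118). The nucleotide-sugar transporter gene Efr had one of -0.42 (SE 0.157), and none of these passed the test.

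Among other listed glycosyltransferases, 1 of 16 measured genes fell against mock, where 1.09% of all genes were called lower. Glys, which encodes glycogen synthase, changed by -0.62 against mock (SE 0.126, limma adjusted p = 0.0434) and by -0.62 against untreated cells (adjusted p = 0.0409), a call held in 9 of 19 alternatives against mock. Its levels were 11.27 and 11.16 in untreated, 11.41 and 11.02 in mock and 10.66 and 10.53 in NELF-depleted cells. Leaving out mock replicate 1 gave -0.43 (adjusted p = 0.194), and the call also ended without untreated replicate 1 or 2 (0.0799 and 0.0865) or NELF-depleted replicate 1 or 2 (0.173 and 0.372). It ended as well with values as deposited (0.677), on array medians (0.635), with the larger offsets (0.0626 and 0.127) and with the single prior (0.434). The glycogenin gene Gyg (-0.60, SE 0.192) and the glucuronyltransferase genes GlcAT-I (-0.30, SE 0.0991) and GlcAT-P (-0.91, SE 0.314) did not pass. Higher values that did not pass were those of GlcAT-S (0.60, SE 0.209), also a glucuronyltransferase gene, fng (0.88, SE 0.372) and ttv (0.24, SE 0.108). At an unadjusted p under 0.05 by limma there were 7 of the 16, beside 1320 of all 11981 genes. The remaining genes did not pass, and the median over the 16 was 0.09.

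Of 19 measured genes for other conjugating enzymes, efflux pumps and glucuronide cleavage, 8 lay above background. Against mock 1 of the 19 fell, where 1.09% of all genes were called lower. CG7627, which encodes a transporter of the ABCC type that can export conjugates, had levels of 9.15 and 9.06 in untreated, 9.15 and 9.09 in mock and 8.20 and 8.33 in NELF-depleted cells. All 4 controls lay above both NELF-depleted arrays. The difference was -0.86 against mock (SE 0.105, limma adjusted p = 0.00212) and -0.84 against untreated cells (adjusted p = 0.0023). The call against mock ended with values scaled as deposited (-0.94, adjusted p = 0.123), on array medians (-0.80, adjusted p = 0.0863) and with the single prior (adjusted p = 0.203). The related transporter genes Cftr (0.34, SE 0.143) and MRP (0.28, SE 0.135) did not pass, nor did the sulfotransferase gene St4, which lay below background by its mean and in each group, so no difference is given. The median over the 19 was -0.04.

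Of 8 measured genes in a list of detoxification regulators, 0 were called against mock by limma (median -0.01). Beside 1320 of all 11981 genes, 1 of the 8 had an unadjusted p under 0.05 by limma. This was cnc, which encodes the Nrf2-like activator of detoxification genes, at -0.29 (SE 0.0954, adjusted p = 0.262). The ecdysone receptor gene EcR had a value of 0.52 (SE 0.239), Keap1, the inhibitor of cnc, one of 0.19 (SE 0.219), and maf-S, the partner of cnc, one of -0.04 (SE 0.0928).

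Of the 12 blood cell markers, 2 fell against mock, where 1.09% of all genes were called lower. The phagocytic receptor genes drpr and eater both changed by -0.87 against mock (SE 0.112 and 0.148, limma adjusted p = 0.00301 and 0.017), and drpr lost the call without mock replicate 1 (adjusted p = 0.0505). The call of eater ended without mock replicate 1 or 2 (0.162 and 0.0544) or NELF-depleted replicate 1 or 2 (0.152 and 0.127). Against mock, drpr also lost it with values as deposited (0.113), on array medians (0.0717) and with the single prior (0.212). The same settings ended the call of eater (0.180, 0.200 and 0.331), as did the 50-unit offset (0.0892). Among the others, ush had a value of 0.42 (SE 0.113), Hml one of 1.23 (SE 0.393) and Pxn one of 0.52 (SE 0.159), none past the test. NimC1 lay below background in each group, so no difference is given. By limma 6 of the 12 had an unadjusted p under 0.05, beside 1320 of all 11981 genes. The median over the 12 was 0.14, and 4 of them had negative differences. The part of these markers in the lower Ugt values was not tested. In RNA from whole cultures fewer cells with an mRNA and less mRNA per cell cannot be told apart. Of the 10 measured markers of fat body, gut, Malpighian tubule and antenna, 0 were called against mock. At an unadjusted p under 0.05 by limma there were 0 of them, beside 1320 of all 11981 genes.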

How the data were processed

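The authors deposited linear intensity values of 18952 probe sets on 6 arrays, grouped and numbered here by sample title. Per the series design text among the labels, arrays were scanned with GeneChip Operating Software 1.2.0.037 or Command Console 1.1 and imported into Rosetta Resolver 6.0. The sources used here name no probe summary, background step or scaling. Array medians differed by 0.274 on the log2 scale.

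From these values log2(intensity + 0.819) was computed with the 5th percentile of all values as offset, which understates changes of dim genes. Arrays were quantile normalized and 183 control probe sets dropped. Probe sets with exactly 1 annotated gene (13647) were kept, the brightest per gene, and symbols were updated by gene identifier with RefSeq Release 6 (11893 of 11981 genes found), which was also used for gene order. Without a genome build for the deposited values, only chromosome arms are printed.

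Genes were tested two-sided with limma 3.58.1 in R 4.3.3 (3 group means, 6 arrays, 3 residual and 7.31 prior degrees of freedom, eBayes with an intensity-dependent prior, Benjamini-Hochberg over all genes, called at an adjusted p under 0.05), and the scripts were tested on simulated data. Background came from 17 tag control probe sets (95th percentile). An "at least" fold sets the brighter group mean against the dimmer one with each array raised to background. The 2 arrays of each group had 0 identical values.

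The members, the gene lists and the intensity-dependent prior were chosen with earlier results of these data known. Members above background in the mean or in a group are described by array; of the silent ones, the 4 with the smallest unadjusted p get values, and Ugt304A1 and the other genes with groups apart were named after their values were seen. List members are named if called, and up to 4 per list by smallest p. Neighbouring genes, the markers ush, NimC1, Sr-CI, He, Hml and Pxn, and UGP, GlcAT-S, fng and ttv were named after their values were seen. Alternatives covered scaling, offset, filters, prior, probe sets, replicate block and leaving out each array.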

Additional observations from a re-analysis of the deposited data

How the results depend on the processing

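The number of Ugt genes above background was 6 under each scaling, offset and left-out array tried and with the highest tag control as background. It was 8 with the 75th percentile of tag controls, 5 when all arrays had to exceed background and 14 when at least 1 did. The members called against mock and against untreated cells, 2 each, became 5 and 4 with arrays scaled on hybridization controls, 1 and 1 with an offset of 50 units, and 0 and 0 with a single prior variance, where 6 and 6 members, and 1097 and 1044 of all 11981 genes, had an unadjusted p under 0.05. Leaving out 1 array gave 1 to 2 in each. Genes called in all against mock went from 162 to 54 as deposited, 54 on array medians, 2893 on hybridization controls, 74 with the 50-unit offset, 0 with the single prior, 271 with the replicate block and 69 to 126 with 1 array left out. Against untreated cells 169 went to 1999 on hybridization controls, 89 with the 50-unit offset, 0 with the single prior, 270 with the replicate block and 70 to 146 with 1 array left out. Relative to mock, hybridization-control scaling moved the median of all genes to -0.44; relative to untreated cells the medians were -0.37 as deposited, -0.14 on array medians and -0.35 on hybridization controls.

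With the replicate block, 3 members were called in each comparison with NELF-depleted cells, Ugt302C1 being added, and 0 between mock and untreated cells. Deviations of same-numbered arrays correlated at -8.41e-05, 0.0116 and 0.0228 over all genes and at 0.145, 0.158 and 0.156 over genes above background; the labels do not say what the numbers mark.

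Differences that changed sign were all uncalled in the main test. These were Ugt305A1 against mock on hybridization controls (-0.12), Ugt316A1 against mock on array medians (0.0484), Ugt316A1 between mock and untreated cells on hybridization controls (0.0346), and Ugt36A1. Ugt36A1 was -0.42, -0.19 and -0.40 against untreated cells as deposited, on array medians and on hybridization controls, and -0.25 and -0.15 between mock and untreated cells under the first 2. With single arrays left out, NELF-depleted minus mock ran from -0.19 to 0.15 for Ugt316A1, -0.40 to 0.21 for Ugt36A1 and -1.19 to 0.63 for Ugt36D1. NELF-depleted minus untreated ran from -0.37 to 0.20 for Ugt305A1, -0.13 to 0.0631 for Ugt316A1 and -0.18 to 0.24 for Ugt36A1. Mock minus untreated ran from -0.18 to 0.0851 for Ugt302C1, -0.19 to 0.15 for Ugt316A1, -0.36 to 0.32 for Ugt35A1 and -0.19 to 0.42 for Ugt36A1. The cause of these changes was not tested. With 2 arrays a group and noise below background, changes in silent members could not be measured.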
